A study of Mus musculus with 9 samples.

Results

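The enzymes that supply NADPH were followed over the mammary cycle of the mouse through the genes G6pdx, Pgd, Taldo1, Tkt, Me1 and Idh1. They were picked by gene symbol, current or older, and not by their values, though earlier results of these data were known. Of the 6 genes, 5 had a probe set, a group of short probes for 1 transcript, under the array's annotation, and these 5 genes had 6 probe sets among the 12422 on the array that are not controls. G6pdx was not found under its symbol, its synonyms or its Entrez number and was not analysed here. All 6 probe sets passed the filter on dim signals and were among the 9783 tested, but the second probe set of Pgd passed only through the stages in which it was brightest. RNA of the whole no. 4 (inguinal) gland, fat pad included, of wild type C57BL/6J females was hybridized to 9 Affymetrix MG-U74Av2 arrays. Puberty (virgin females of 6 weeks) had 3 arrays. The other stages had 2 arrays each and were pregnancy on day 14, lactation on day 10 and involution, 4 days after the pups were weaned. No group carried an allele or a treatment, and each array is described as a biological replicate.

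NADPH is the reducing agent of fatty acid and sterol synthesis, and the lactating gland of the mouse is among the organs that make most fat from glucose. The oxidative arm of the pentose phosphate pathway forms NADPH at glucose 6-phosphate dehydrogenase (G6pdx) and at 6-phosphogluconate dehydrogenase (Pgd). Its non-oxidative arm, with transketolase (Tkt) and transaldolase (Taldo1), forms no NADPH itself but returns pentose phosphates to glycolysis. Cytosolic malic enzyme (Me1), which turns malate into pyruvate, and cytosolic isocitrate dehydrogenase (Idh1) form NADPH outside this pathway. Malic enzyme closes the citrate and pyruvate shuttle, by which acetyl groups leave the mitochondrion for fat synthesis.

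These genes did not move as a group. From pregnancy to lactation Me1 rose 2.81-fold and Taldo1 rose 1.33-fold, while Idh1 fell 2.68-fold and Tkt fell 1.85-fold. From lactation to involution Idh1 rose 3.97-fold and Tkt rose 2.85-fold, and Me1, Taldo1 and Pgd did not pass the test. The folds are between geometric means of the scaled signal. The test was limma's, adjusted by Benjamini-Hochberg over all tested probe sets, and a gene or probe set whose adjusted p was under 0.05 is called. By limma's F test over the 4 stages 4 of the 5 genes were called, against 51.6% of all tested probe sets, so that a stage difference alone does not set them apart. In whole tissue, fewer cells of a type and less RNA per cell cannot be told apart.

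The stretches around the first listed start site of Me1, Tkt and Idh1 are shown because these 3 genes changed most, in opposite directions. Each runs from 150 bases before to 20 bases after the start in RefSeq, build GRCm38.p6. That of Me1 lies at chr9:86695895-86696064 on the minus strand, that of Tkt at chr14:30548981-30549150 on the plus strand and that of Idh1 at chr1:65186460-65186629 on the minus strand. Capitals mark a match to TGACNNNGC, the core of the antioxidant response element.
Me1: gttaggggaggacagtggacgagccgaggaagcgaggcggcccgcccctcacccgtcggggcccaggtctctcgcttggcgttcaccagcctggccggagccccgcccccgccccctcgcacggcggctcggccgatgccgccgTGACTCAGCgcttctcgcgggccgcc
Tkt: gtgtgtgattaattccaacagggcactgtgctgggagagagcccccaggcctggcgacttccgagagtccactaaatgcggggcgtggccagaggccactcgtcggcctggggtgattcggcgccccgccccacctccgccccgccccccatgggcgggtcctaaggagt
Idh1: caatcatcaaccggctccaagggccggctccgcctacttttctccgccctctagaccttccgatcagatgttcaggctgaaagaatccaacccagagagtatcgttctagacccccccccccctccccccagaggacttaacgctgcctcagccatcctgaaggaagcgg

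Searched on both strands of windows of 300 bases, TGACNNNGC was found for 3 of the 6 genes. These were G6pdx, Pgd (at its second listed start only) and Me1. Of the 32851 promoter windows of RefSeq, 12.4% held it. The 6 genes were counted by any of their windows, and Pgd, Me1 and Idh1 had a second window. The count of genes and the share of windows are thus unlike measures. In Me1 the match began 6 bases before the start site. No window of the 6 genes held CACGTG (an E-box, 7.15% of all windows), TCACNCCAC (a sterol regulatory element, 1.24%), TTCNNNGAA (a STAT core, 8.3%) or TATAAA (13.6%). These are matches of letters within the windows alone.

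Pgd was represented by a probe set among the brighter ones of the array. Its scaled signals, that is the deposited signals after the arrays were brought to equal medians, were 392, 485 and 368 at puberty, 541 and 532 at pregnancy, 964 and 571 at lactation and 683 and 497 at involution. All puberty arrays were lower than all others, and the lactation arrays lay far apart. The order of the stage means was lactation, involution, pregnancy and puberty. Of the neighbours in this order, lactation and involution overlapped, as did involution and pregnancy, while pregnancy and puberty did not. The lactation mean was 768 ± 278 (SD, n = 2). Pgd was not called by the F test (adjusted p = 0.0666). The change from pregnancy to lactation had a log2 value of 0.47 with a 95% interval from -0.12 to 1.06 (adjusted p = 0.183). Without lactation replicate 2 it was 0.85 (adjusted p = 0.047). The second probe set of Pgd was dim, with 5.31 to 18.9 at puberty and pregnancy, under the signal of 20 below which all values were set to 20 before the test (the floor). It read 27.9 and 25.7 at lactation and 28.2 and 22.1 at involution, and it was not called by the F test either (adjusted p = 0.0673).

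Taldo1 moved little and with little spread. Its signals were 507, 546 and 588 at puberty, 569 and 518 at pregnancy, 704 and 738 at lactation and 672 and 649 at involution. Both lactation arrays were higher than both involution arrays, which were higher than all 5 of puberty and pregnancy. Puberty and pregnancy overlapped. The rise from pregnancy to lactation had a log2 value of 0.41 (standard error 0.126, adjusted p = 0.0303). The change from lactation to involution was -0.13, with an interval from -0.41 to 0.16 (adjusted p = 0.441). Its F test gave an adjusted p of 0.0395, which was 0.111 with the values as deposited and 0.257 under quantile normalization. From pregnancy to lactation the rise was 0.30 (adjusted p = 0.0683) with the values as deposited and 0.24 (adjusted p = 0.15) under quantile normalization. It was not called without puberty replicate 2 (adjusted p = 0.0539) or without pregnancy replicate 2 (0.34, adjusted p = 0.113).

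Tkt, the partner of Taldo1 in the non-oxidative arm, went the other way. Its signals were 3007, 2665 and 2926 at puberty, 2572 and 2382 at pregnancy, 1102 and 1625 at lactation and 4286 and 3404 at involution. No stage overlapped with another, in the order involution, puberty, pregnancy and lactation. Tkt fell by 0.89 on the log2 scale from pregnancy to lactation (standard error 0.206, adjusted p = 0.0092), and from lactation to involution it rose by 1.51 (standard error 0.206, adjusted p = 0.000565). The fall was not called without pregnancy replicate 1 (-0.83, adjusted p = 0.0647) or without lactation replicate 1 (-0.61, adjusted p = 0.0506), while the rise was called under all 22 alternatives. Involution was above puberty by 0.42 on the log2 scale, with an interval from -0.01 to 0.85 (adjusted p = 0.24). The F test gave an adjusted p of 0.00192.

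Me1 had the largest rise at lactation of the 5 genes. Its signals were 1314, 1337 and 1547 at puberty, 947 and 968 at pregnancy, 2948 and 2459 at lactation and 2849 and 1632 at involution. The pregnancy arrays were the lowest and close together, and the 2 involution arrays differed widely, with replicate 1 among the lactation arrays and replicate 2 just above puberty. Its stage means ran in the order lactation, involution, puberty and pregnancy, and lactation and involution overlapped while the other neighbours did not. Me1 rose by 1.49 on the log2 scale from pregnancy to lactation (standard error 0.242, adjusted p = 0.00168), and this was called under all 22 alternatives. From puberty to pregnancy the value was -0.54 (adjusted p = 0.168). From lactation to involution it was -0.32, with an interval from -0.87 to 0.23 (adjusted p = 0.31), and here the involution arrays decided. Without involution replicate 1 it was -0.72 (adjusted p = 0.0199) and without involution replicate 2 it was 0.08 (adjusted p = 0.736). From puberty to involution the value was 0.63 (adjusted p = 0.135), and 1.03 (adjusted p = 0.0331) without involution replicate 2. The F test gave an adjusted p of 0.00361.

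Idh1 had the widest range of the 5 genes. Its signals were 454, 457 and 382 at puberty, 324 and 239.7 at pregnancy, 97.9 and 109.9 at lactation and 470.1 and 362 at involution. Lactation stood far below every other stage, pregnancy lay between, and puberty and involution overlapped. Idh1 fell by 1.42 on the log2 scale from pregnancy to lactation (standard error 0.2, adjusted p = 0.000847), and from lactation to involution it rose by 1.99 (standard error 0.2, adjusted p = 0.000122). Both were called under all 22 alternatives. From puberty to pregnancy the value was -0.62, with an interval from -1.04 to -0.21 and an adjusted p of 0.0631. From puberty to involution it was -0.06, with an interval from -0.47 to 0.36 (adjusted p = 0.933). The F test gave an adjusted p of 0.00019.

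**Figure D1:**
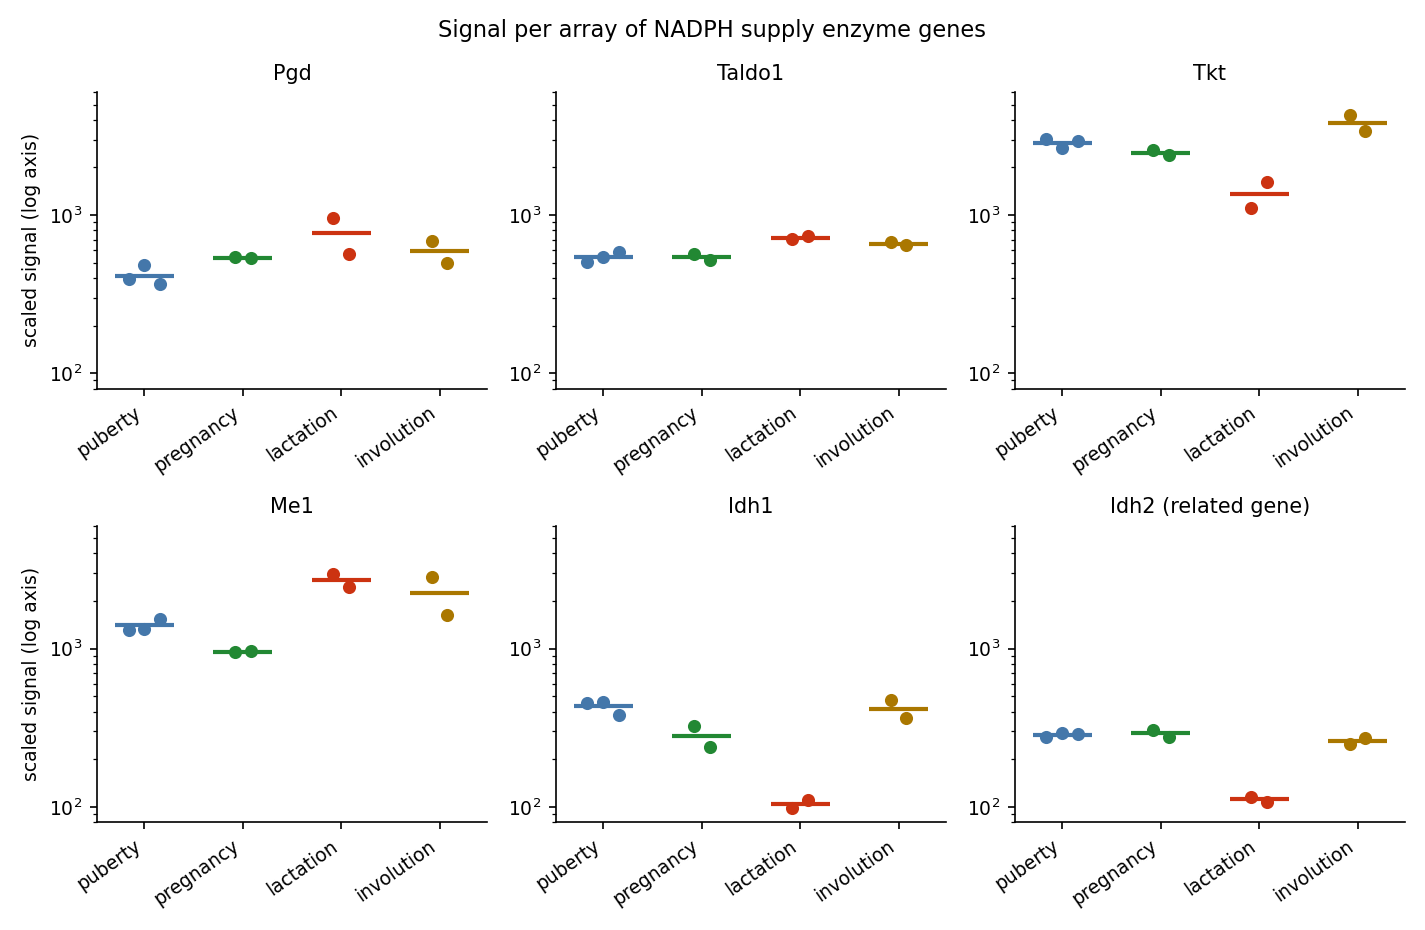
Scaled signal on a logarithmic axis of Pgd, Taldo1, Tkt, Me1, Idh1 and the related gene Idh2 in the 4 stages (3 arrays at puberty and 2 at each later stage), with a point for each array and a bar for the stage mean. Me1 was highest at lactation, at 2948 and 2459, while Idh1 (97.9 and 109.9), Tkt (1102 and 1625) and Idh2 (115 and 107) were lowest there.

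Over the steps of the cycle, the 5 genes were thus called mostly around lactation. In the step from puberty to pregnancy 0 rose and 0 fell, where 6.2% of all tested probe sets rose and 5.22% fell. At an unadjusted p under 0.05, that is with a 95% interval that leaves out 0, 2 of the 5 genes were lower at pregnancy (Me1 and Idh1), as were 11.6% of all tested probe sets. In the step to lactation 2 rose (Taldo1 and Me1) and 2 fell (Tkt and Idh1), where 21.6% of all probe sets rose and 19.7% fell. From lactation to involution 2 rose (Tkt and Idh1) and 0 fell, where 22.1% rose and 23% fell. From puberty to involution 0 rose and 0 fell, against 4.39% and 3.1%. At an unadjusted p under 0.05, 2 of the 5 were higher at involution than at puberty (Taldo1 and Me1), as were 13.4% of all. From lactation to involution 0 of the 5 were lower by that measure, against 27% of all. The median log2 change of the 5 genes was 0.41 from pregnancy to lactation and -0.13 from lactation to involution, and that of all tested probe sets was 0.07 and -0.03. It was -0.21 from puberty to pregnancy and 0.42 from puberty to involution, against 0 and 0.05. These steps share arrays and are not independent of each other. At involution, replicate 1 was above replicate 2 in all 5 genes.

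**Figure D2:**
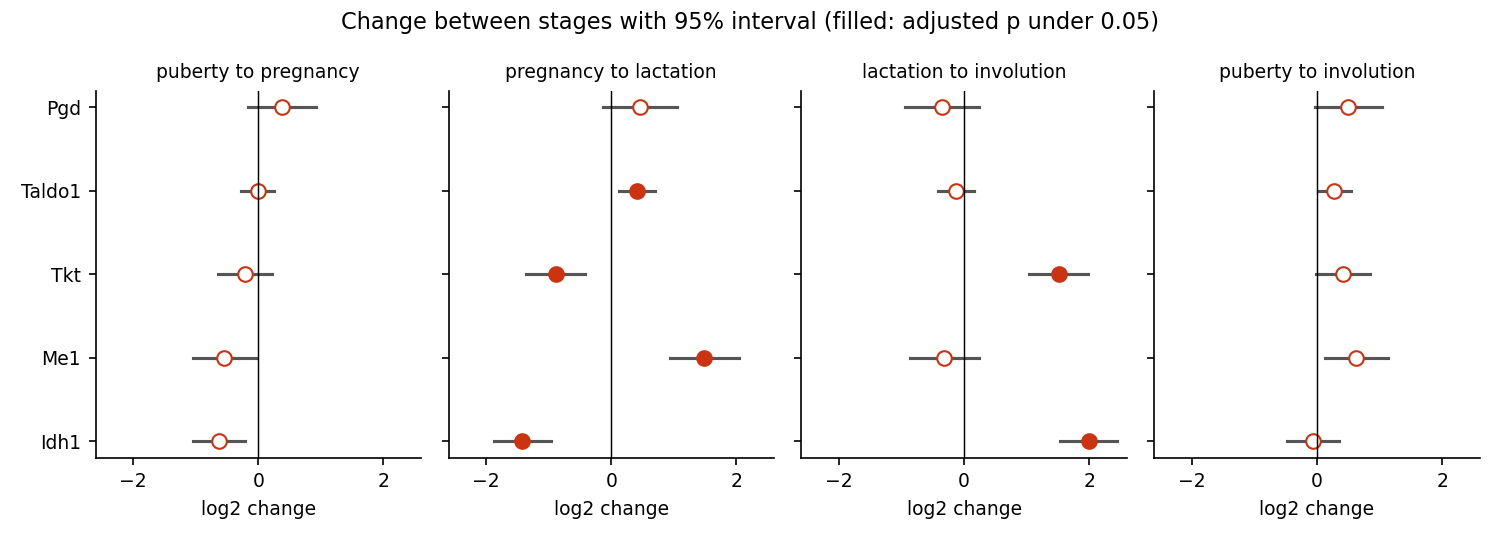
Log2 change of the 5 genes between stages, later minus earlier, with its 95% interval from limma (n = 9 arrays in 1 fit). Filled points have an adjusted p under 0.05. Around lactation the filled points of Tkt and Idh1 (-0.89 and -1.42, then 1.51 and 1.99) lie opposite to that of Me1 (1.49).

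The mitochondrial form of isocitrate dehydrogenase, Idh2, which also forms NADPH, fell at lactation as well. Its signals were 276, 293 and 288 at puberty, 304 and 277 at pregnancy, 115 and 107 at lactation and 248 and 273 at involution, so that the lactation arrays were apart from all others. It fell by 1.39 on the log2 scale from pregnancy to lactation (standard error 0.138, adjusted p = 0.000178) and rose by 1.23 from lactation to involution (standard error 0.138, adjusted p = 0.000216). From puberty to pregnancy its change was 0.02 (adjusted p = 1), where Idh1 had -0.62. The difference between the 2 genes was not tested. Of 5 listed NAD-linked dehydrogenases of isocitrate and malate 4 were tested. Between pregnancy and lactation 1 (Mdh1) rose and 0 fell, with a median of 0.02, against 21.6% and 19.7% of all tested probe sets. Later, at involution, 1 rose (Idh3a) and 1 fell (Mdh1), against 22.1% and 23%. From pregnancy to lactation the isocitrate dehydrogenase subunit Idh3a had a log2 change of -0.09 (adjusted p = 0.792) and Idh3g one of -0.05 (adjusted p = 0.863), and Idh3b was too dim to be tested. From lactation to involution Idh3a rose by 0.80 (adjusted p = 0.0259), but this was called in only 16 of 21 alternatives.

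The other genes of the pentose phosphate pathway were read as a list of their own. Of 13 listed genes 10 had a probe set and 7 were tested. Between pregnancy and lactation 1 of them was called higher and 0 lower, with a median log2 change of 0.02, against 21.6% and 19.7% of all tested probe sets. With the values as deposited, or without pregnancy replicate 2, 1 was called lower. Between lactation and involution 2 rose and 1 fell, against 22.1% and 23% of all tested probe sets. Both the 1 called higher at lactation and the 1 that fell at involution were Pgm2, which acts on pentose phosphates. It was dim, with 20.2 to 36.8 over the 9 arrays. Neither its rise nor its fall was called without a floor, with a floor of 50 or with a constant of 16 added. H6pd, which encodes the glucose 6-phosphate dehydrogenase of the endoplasmic reticulum, fell from puberty to pregnancy by 0.61 (standard error 0.137, adjusted p = 0.0235). This was called in 14 of 21 alternatives. It was not called with the replicate block (adjusted p = 0.111) or without limma's moderation of the variance (adjusted p = 0.0601). Nor was it called without any 1 puberty array, pregnancy replicate 2 (-0.44) or lactation replicate 2. H6pd rose from lactation to involution by 0.47 (adjusted p = 0.0327), a call made in only 12 of 21 alternatives. The puberty arrays of H6pd read 746, 728 and 844 and the pregnancy arrays 569.7 and 449, and they did not overlap. Prps1, which makes phosphoribosyl pyrophosphate from ribose 5-phosphate, had a log2 change of -0.66 from pregnancy to lactation, with an interval from -1.28 to -0.04 (adjusted p = 0.0848). It rose from lactation to involution by 0.77 (adjusted p = 0.047), in 7 of 21 alternatives. Rpia, which encodes the isomerase between ribulose 5-phosphate and ribose 5-phosphate, had a log2 change of -0.05 from pregnancy to lactation (adjusted p = 0.855). The lactonase gene Pgls, whose product acts between G6pdx and Pgd, had a log2 change of -0.06 from pregnancy to lactation (adjusted p = 0.814). G6pd2, an autosomal copy of G6pdx, read 3.98 to 42.2 over the 9 arrays and was not called at any step, and its signal cannot be taken for that of G6pdx. Tktl1, a relative of Tkt, read 2.12 to 25.6 and was too dim to be tested.

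Among other genes that form NADPH or NADP, 5 of 11 listed genes were tested. Between pregnancy and lactation 2 fell and 0 rose, with a median log2 change of -0.20, against 19.7% and 21.6% of all tested probe sets. The 2 that fell were Idh2 and Glud1, which encodes glutamate dehydrogenase and fell by 0.85 (adjusted p = 0.0146). Without lactation replicate 1, lactation replicate 2 or pregnancy replicate 1 the fall of Glud1 was not called (adjusted p of 0.0604 to 0.0999). The same 2 genes rose from lactation to involution, Glud1 by 1.45 (adjusted p = 0.000943), where 22.1% of all tested probe sets rose. Nadk, whose product NAD kinase makes NADP, had a log2 change of 0.17 from pregnancy to lactation (adjusted p = 0.638). The transhydrogenase gene Nnt and Mthfd2 were not called at any step.

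Most of the tested genes that bring carbon to malic enzyme and to fat synthesis were called higher at lactation, as Me1 was. Of 11 listed genes of the citrate and pyruvate shuttle 9 were tested. Between pregnancy and lactation 7 rose and 0 fell, with a median log2 change of 1.08, against 21.6% and 19.7% of all tested probe sets. Between lactation and involution 6 fell and 0 rose, with a median of -0.74, against 23% and 22.1%. Acly, which encodes ATP citrate lyase, had signals of 1330 and 1478 at pregnancy, 8378 and 6260 at lactation and 2365 and 1821 at involution. It rose by 2.37 (standard error 0.235, adjusted p = 0.000173) and then fell by 1.80 (adjusted p = 0.000446). Slc25a1, the citrate carrier of the mitochondrion, rose by 2.34 (standard error 0.277, adjusted p = 0.000368) and fell by 2.28 (adjusted p = 0.000312). Pdhb, a subunit of pyruvate dehydrogenase, rose by 1.75 and fell by 1.18, and Cs, the citrate synthase gene, rose by 1.18 and fell by 0.99. Mdh1, whose product makes the malate that malic enzyme uses, rose by 1.08 (adjusted p = 0.00569). Its fall of 0.74 afterwards was not called without lactation replicate 1 or involution replicate 1 (adjusted p of 0.0905 and 0.0919). The rises of Acly, Slc25a1, Pdhb, Cs and Mdh1 were called in all 21 alternatives. From lactation to involution Acly and Slc25a1 were called lower and Me1 was not, with -0.32 and an interval from -0.87 to 0.23. Without involution replicate 1 the value of Me1 was -0.72. The difference between the genes was not tested. Aco1, a cytosolic aconitase gene, had -0.56 (adjusted p = 0.144), and Mpc1, a subunit of the mitochondrial pyruvate carrier, was under the floor on 8 of 9 arrays. Pcx (0.78, adjusted p = 0.028) and Pdha1 (0.48, adjusted p = 0.0309) were called in fewer alternatives, and with the replicate number as a block 5 of the 9 rose. Without pregnancy replicate 2, 5 of the 9 rose and 1 fell.

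Genes whose products use NADPH did not all move alike. Of 12 listed genes of fatty acid and sterol synthesis 8 were tested. Between pregnancy and lactation 6 rose and 0 fell, with a median of 1.25, against 21.6% and 19.7% of all tested probe sets. Between lactation and involution 6 fell and 0 rose, with a median of -0.83, against 23% and 22.1%. Without lactation replicate 1, 4 fell and 1 rose in the latter step. The rise of Dhcr7 from pregnancy to lactation, 1.03 (adjusted p = 0.0411), was called in only 8 of 20 alternatives. Its signals were 30.3 and 22.6 at pregnancy, near the floor, and 62.1 and 46.1 at lactation. Sqle, the squalene epoxidase gene, went up by 2.11 (standard error 0.245, adjusted p = 0.00034) and the sterol demethylase gene Cyp51 by 1.52 (adjusted p = 0.00175). Hsd17b12, which acts in fatty acid elongation, rose by 1.33 (adjusted p = 0.000739). Fasn, the fatty acid synthase gene and a main user of NADPH, read 3162 and 2456 at pregnancy, 7328 and 6710.2 at lactation and 4366 and 4305 at involution. It too was 1.33 higher at lactation than at pregnancy (adjusted p = 0.000966), and its fall of 0.69 afterwards (adjusted p = 0.018) was -0.06 (adjusted p = 0.798) under quantile normalization and was not called without any 1 of the 4 lactation and involution arrays (adjusted p of 0.0536 to 0.091). Of 9 listed redox enzymes that use NADPH 6 were tested. Between pregnancy and lactation 1 fell and 0 rose (median -0.19), against 19.7% and 21.6% of all tested probe sets. Between lactation and involution 3 rose and 0 fell (median 0.75), against 22.1% and 23%. Gsr, the glutathione reductase gene, was higher by 1.13 at involution than at lactation (standard error 0.215, adjusted p = 0.00309). Akr1a1, an aldehyde reductase gene, fell by 0.69 at lactation (adjusted p = 0.0154) and rose by 0.94 (adjusted p = 0.00328) at involution. Its fall was not called without pregnancy replicate 1, pregnancy replicate 2 or lactation replicate 1 (adjusted p of 0.0513 to 0.0982). The third is Nqo1, a quinone reductase gene, which passed the filter only through involution, so that its call is no support for the count. It read 2.49 and 2.12 at lactation and 40.5 and 32.6 at involution, and with a floor of 50 it had no change left. Txnrd1, a thioredoxin reductase gene, went the other way without being called at these steps. Its log2 change was 0.43 from pregnancy to lactation, with an interval from 0.03 to 0.83 (adjusted p = 0.081). From lactation to involution it was -0.44, with an interval from -0.83 to -0.04 (adjusted p = 0.0713).

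At the branch point where glucose 6-phosphate enters glycolysis or the pentose phosphate pathway, 6 of 7 listed genes were tested. Between pregnancy and lactation 3 rose and 1 fell (median 0.67), against 21.6% and 19.7% of all tested probe sets. Between lactation and involution 1 rose and 2 fell (median -0.21), against 22.1% and 23%. From pregnancy to lactation Hk2, a hexokinase gene, rose by 0.75 (adjusted p = 0.0301), which was called in only 11 of 21 alternatives. Slc2a1, which encodes a glucose transporter, was up by 3.13 (standard error 0.437, adjusted p = 0.000825) and Pfkl, the liver form of phosphofructokinase, by 1.62 (adjusted p = 0.000271). Pfkp, the platelet form, was the 1 that fell. It read 50.7 and 46.4 at pregnancy and 8.0 and 14.7 at lactation, both under the floor, and so was at least 2.43-fold lower at lactation (adjusted p = 0.00461). Pfkm, the muscle form, read 453, 326 and 741 at puberty against 89.0 and 60.8 in the pregnant gland. Its fall of 2.70 (adjusted p = 0.00186) went with that of all 6 skeletal muscle markers, whose part in it was not tested. In the 7 lists 0 genes were called higher at pregnancy than at puberty, where 6.2% of all tested probe sets rose and 5.22% fell. Called lower were Pfkm in 21 of 21 alternatives, Glud1 in 19, Hk2 in 18, H6pd in 14, Slc25a1 and Pcx in 10 each and Nsdhl in 9. With the replicate block H6pd, Glud1, Slc25a1, Pcx and Nsdhl were not called (adjusted p of 0.0518 to 0.15). Pfkm was also lower at involution than at puberty, with a log2 change of -2.73 (adjusted p = 0.00189).

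**Figure D3:**
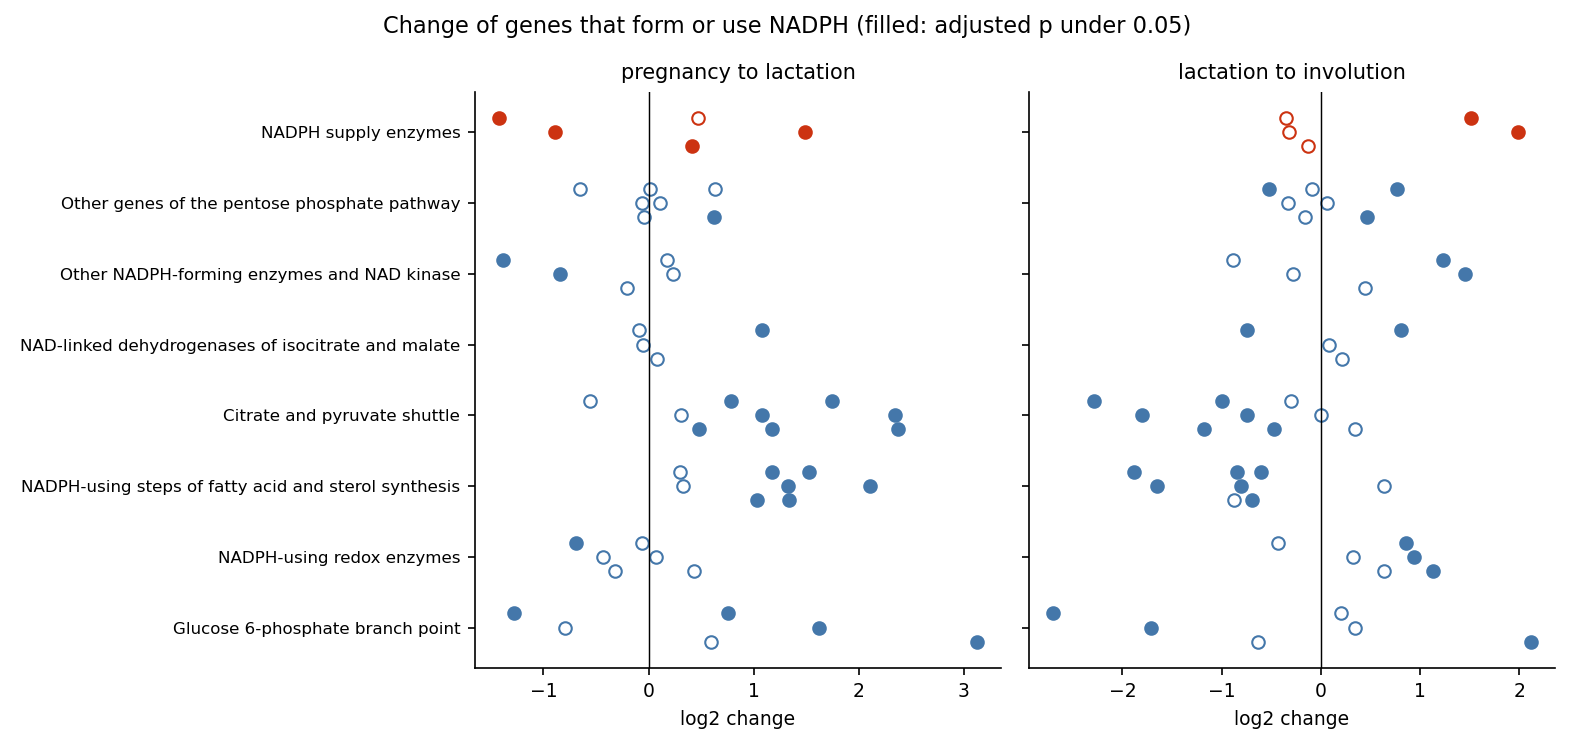
Log2 change from pregnancy to lactation and from lactation to involution of the 5 NADPH supply genes and of the tested genes of 7 related lists, with a point for each gene, filled where the adjusted p was under 0.05. From pregnancy to lactation the filled points of the shuttle (7 of 9) and of fatty acid and sterol synthesis (6 of 8) all lie above 0, while those of the supply genes lie on either side (2 above, 2 below).

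The makeup of the gland changed with the stages in which these genes moved. Of 11 listed markers of white adipocytes 9 were measured, and their summed signal was 13401 to 17828 at puberty, 7699 to 11394 at pregnancy, 2866 to 3332 at lactation and 14586 to 16849 at involution. Of these markers 7 fell and 0 rose from pregnancy to lactation, where 19.7% of all tested probe sets fell and 21.6% rose. From lactation to involution 9 rose and 0 fell, where 22.1% of all rose and 23% fell. At lactation Pparg was under the floor on both arrays. The summed signal of 6 markers of T and B cells was 3121 to 3418 at puberty, 1407 to 1724 at pregnancy, 595 to 1401 at lactation and 3907 to 4117 at involution, and Cd3g and Cd8a were under the floor at lactation. That of 6 macrophage markers was 2396 to 2929 at puberty, 2766 to 2802 at pregnancy, 1461 to 2441 at lactation and 5540 to 7070 at involution. Of the T and B cell markers 2 fell and 0 rose from pregnancy to lactation, against 19.7% and 21.6% of all tested probe sets. From lactation to involution 6 rose and 0 fell, against 22.1% and 23%. Of the macrophage markers 4 fell and 0 rose in the first of these steps, and 5 rose and 0 fell in the second, beside the same shares. Idh1, Tkt and Idh2 were thus low at the stage in which the summed markers of fat cells, lymphocytes and endothelium were lowest. The macrophage sum was low there too, though it overlapped with puberty, and it was highest at involution, as Tkt was. The fat cell, lymphocyte and endothelial sums were also lower at pregnancy than at puberty. In that step the log2 change was -0.62 for Idh1, -0.21 for Tkt and 0.02 for Idh2, and these changes were not called. The part of fat cells, lymphocytes, macrophages and endothelial cells in the falls of Idh1, Tkt and Idh2 and in their rises at involution was not tested. The summed signal of 6 genes of milk secretion was 465 to 1988 at puberty, 22056 to 23310 at pregnancy, 106230 to 136770 at lactation and 18244 to 22163 at involution. The luminal epithelial markers summed to 8601 to 9295 at pregnancy and 10738 to 12697 at lactation. Of these 8 markers, however, 2 rose and 4 fell in that step, against 21.6% and 19.7% of all tested probe sets. Their median log2 change was -0.35. Me1 had its highest mean at lactation, where the milk gene sum was highest. From puberty to pregnancy the log2 change of Me1 was -0.54 and was not called, and the milk gene sum was higher at pregnancy. The part of milk-secreting cells in the rise of Me1 was not tested. Skeletal muscle markers summed to 7114 to 16670 at puberty and to 92 to 871 at the other stages, and brown adipocyte markers to 1017 to 1916 and 370 to 544. Basal epithelial markers summed to 694 to 2883 over all 9 arrays. Endothelial markers summed to 554 to 610 at puberty, 459 to 469 at pregnancy, 353 to 356 at lactation and 506 to 512 at involution. Of the defining basal keratins, Krt14 was under the floor at puberty, pregnancy and involution, and Krt5 at puberty and pregnancy.

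**Figure D4:**
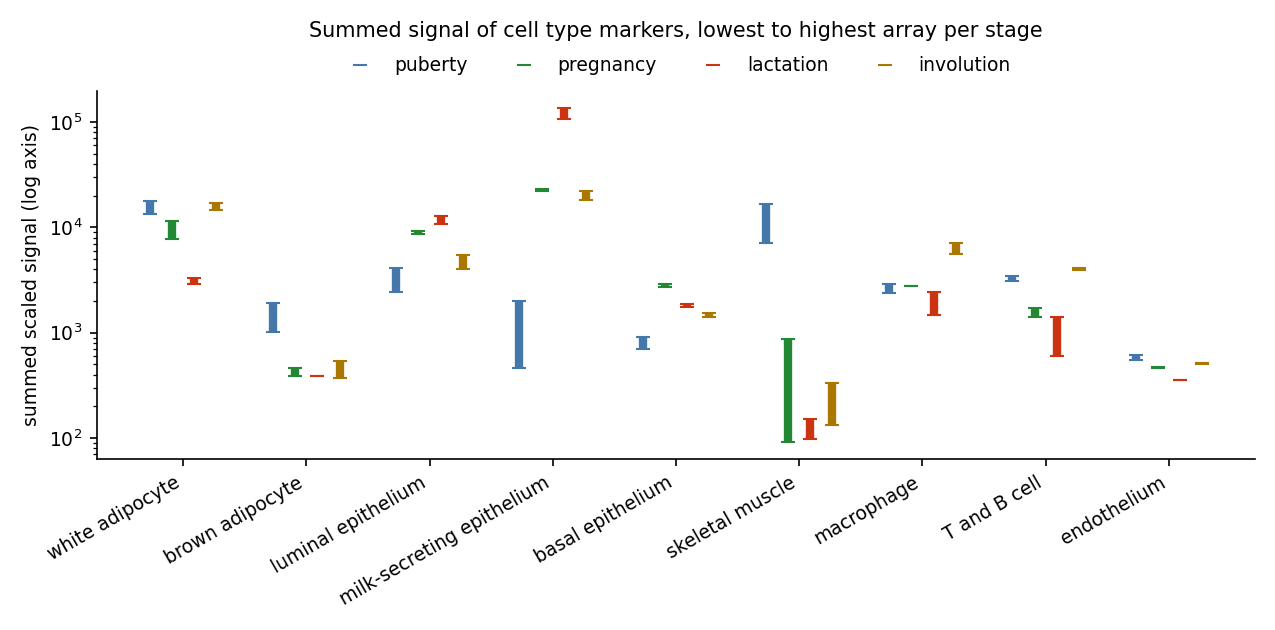
Summed scaled signal, on a logarithmic axis, of the measured markers of 9 cell types, drawn from the lowest to the highest array of each stage. White adipocyte markers were lowest at lactation (2866 to 3332), as were T and B cell markers (595 to 1401), and milk-secreting epithelium markers were highest there (106230 to 136770).

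The genes whose pattern came nearest to each of the 5 were found by Pearson's r of the log2 values over the 9 arrays, among all tested genes with 1 symbol. These are descriptions, since the best of 7086 genes are high in any case and the 9 arrays share 4 stages. Nearest to Idh1 were Cd53 (r = 0.998), Ripor2 (r = 0.992) and Cd52 (r = 0.992), where Cd53 and Cd52 encode surface proteins of leukocytes. Cd53 had signals of 685, 655 and 494 at puberty, 375 and 221 at pregnancy, 54.7 and 79.7 at lactation and 651 and 469 at involution. Its falls and rises ran the same way as those of Idh1 but were larger, -2.12 and then 3.06 around lactation. Nearest to Tkt were Kmt2e (r = 0.985), a chromatin gene, and Lcp1 (r = 0.982) and Cd48 (r = 0.976), both of leukocytes. Nearest to Me1 were Cep350 (r = 0.941), Ruvbl2 (r = 0.940) and Thrsp (r = 0.939), which encodes the lipogenic protein Spot 14. Thrsp rose by 1.34 from pregnancy to lactation (adjusted p = 0.00399), from 1827 and 1846 to 5940 and 3659. Nearest to Taldo1 were Tcf20 (r = 0.963), Synj2bp (r = 0.958) and Ass1 (r = 0.954), and nearest to Pgd were Hax1 (r = 0.948), Nat2 (r = 0.930) and Txndc17 (r = 0.910). Among the 5 genes themselves r was 0.921 for Tkt and Idh1 and 0.860 for Taldo1 and Me1, and the lowest was -0.636 for Pgd and Idh1.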

How the data were processed

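For each array the deposited file holds a linear intensity for 12488 probe sets, made by the authors with MAS5, whose version is not given in the sources used here. The trimmed mean is 125.1 on all arrays, as after scaling to a common target. Without the 66 controls, arrays were brought to equal medians (factors of 0.948 to 1.06). A floor of 20 was then applied, followed by log2. Probe sets with a mean above 20 in at least 1 stage were tested (9783, with 2639 left out). Symbols came from the platform annotation, updated through Entrez numbers with RefSeq's table of GRCm38.p6 for 10817 of 10833 probe sets with 1 symbol. Where a gene had several probe sets the brightest tested one was used.

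All 9 arrays entered 1 fit with limma 3.58.1 in R 4.3.3 (lmFit, eBayes with a trend), with the stage as the only term, an F test and contrasts between stages. P-values were adjusted by Benjamini-Hochberg at 0.05. Pearson's r between arrays was 0.947 to 0.975 within a stage and 0.724 to 0.935 between stages. The steps were tested on simulated data. The number of arrays, 2 at each stage but puberty, limits the precision. The 6 genes, the 7 related lists, the 9 marker lists and the 5 motifs were chosen with earlier results of these data known. Named beside the 5 genes are their relatives, up to 3 genes per list with the smallest adjusted p of the F test, and the 3 nearest genes by r. Idh3b, Pgls, Rpia, Cs, Nnt, Mthfd2, Txnrd1 and all others named only as called, or for a lost call, were chosen after their values were seen. The alternatives were other scalings, floors, filters and variance models, the replicate number as a block, the dimmest tested probe set and leaving out each array. Figures were drawn with matplotlib 3.10.9.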

Additional observations from a re-analysis of the deposited data

How the results depend on the processing

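Of the 20 changes between stages, those of Me1 and Idh1 from pregnancy to lactation and of Tkt and Idh1 from lactation to involution were called under all 22 alternatives. Among the 22, the dimmest tested probe set repeats the main fit for every gene but Pgd, since each of the others had only 1 probe set. That alternative could not alter their calls. From puberty to pregnancy the count of called genes rose from 0 to 1 (Idh1) with 75th percentile scaling, with quantile normalization and with a filter of 100, the cause of which was not tested. Leaving out 1 array gave 3 to 4 genes by the F test, 0 to 1 from puberty to pregnancy (Me1, without either involution array), 3 to 5 from pregnancy to lactation, 2 to 3 from lactation to involution and 0 to 1 from puberty to involution (Me1). The sign turned only in changes that were not called. Taldo1 from puberty to pregnancy was 0.045 with the replicate block and -0.076 to 0.060 without 1 array. From lactation to involution, Me1 was 0.032 under quantile normalization and -0.72 to 0.082 without 1 array, and Pgd was -0.73 to 0.029 without 1 array. From puberty to involution, Idh1 was -0.25 to 0.13 without 1 array. The replicate numbers gave no sign of a pairing of arrays: deviations of arrays with the same number correlated with r of -0.153 to 0.049 over 12 pairs. In stages of 2 arrays the deviations mirror each other, so these pairs are not independent, and a low r cannot exclude a pairing. With the replicate as a block Taldo1 was no longer called (F test adjusted p = 0.0831; pregnancy to lactation adjusted p = 0.0624), and 0 other calls of the 5 genes changed. Signals near the floor, as in the second probe set of Pgd, leave the size of a change unmeasured. Over all tested probe sets, the 1118 calls from puberty to pregnancy became 543 with the block, 617 without moderation and 288 to 1104 without 1 array, and the 732 from puberty to involution became 354, 317 and 245 to 798, with 480 under a floor of 50 and 454 without a filter. The 4035 from pregnancy to lactation became 2573 without pregnancy replicate 1.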
